A study of Mus musculus with 8 samples.

Results

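Olfactory receptor genes form the largest gene family of the mouse and lie in long clusters on several chromosomes. The 3 clusters described here were defined as fixed intervals of the mm9 genome build, on chromosome 2 (chr2:85100001-89800000, 4.7 Mb), chromosome 7 (chr7:109300001-115200000, 5.9 Mb) and chromosome 9 (chr9:37700001-39900000, 2.2 Mb). Together they span 12.8 Mb and 128 windows of 100 kb. The intervals are defined by genome coordinates and not by values of the lists, and they were proposed with earlier results of these data known. The data are positions of protected DNA fragments in chromatin of mouse testis cells treated with MNase (micrococcal nuclease), which cuts DNA wherever protein leaves it exposed. There were 8 libraries, 1 in each group. Cells were enriched for spermatocytes, round spermatids or condensing spermatids, each from animals lacking the histone variant H2A.L.2 (H2A.L.2-less) and from wild-type (WT) animals. Condensing spermatids gave 2 fragment classes per genotype, small structures of 40 to 80 bp and nucleosomes of 130 to 170 bp. The labels used here give no age, no strain and no number of animals, and they do not say how the H2A.L.2 gene was inactivated. The cells are enriched fractions, and no expression values were used here against which their identity could be checked.

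A summit within an interval counts as a position of that cluster. In spermatocytes, 19149 of the 4853610 positions from H2A.L.2-less cells and 19014 of the 5306949 from WT cells lay in the clusters. In round spermatids these numbers were 21135 of 4747226 for H2A.L.2-less and 19368 of 5385833 for WT cells. Among condensing nucleosomes they were 14765 of 3885201 for H2A.L.2-less and 14656 of 3779744 for WT cells. Among small structures they were 10190 of 4114547 in H2A.L.2-less cells and 14180 of 5371290 in WT cells. The clusters thus took between 0.248% and 0.445% of a list. Reads per sample lay between 207000000 and 753000000 per the series description. The lowest heights called differed between the small-structure lists: the first percentile of the summit value, the coverage at the centre of a position, was 96 in the H2A.L.2-less list, against 272 in the WT list. The nucleosome lists had values from 160 to 176. With 1 library in each group there is no replicate check and no test between conditions, and intervals given here cover counting error only.

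As background, each olfactory neuron expresses a single receptor gene from a single allele, and the remaining clusters stay silent under heterochromatin. Most receptor genes are silent in the germ line as well, although transcripts of some have been found in testis. In spermatids most histones give way to transition proteins, which in turn give way to protamines. H2A.L.2 is a testis-specific histone variant known to open nucleosomes to transition proteins in condensing spermatids. The mouse beta-globin genes lie inside a run of olfactory receptor genes, and the interval on chromosome 7 includes them.

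The promoters of olfactory receptor genes are rich in A and T. RefSeq sequences of the GRCm38.p6 build were used, which is not the build of the position lists, so they were placed on no position of these lists. Runs of receptor genes were taken from gene order alone, allowing up to 10 other genes between neighbours. The longest run on chromosome 2 held 293 receptor genes, 71 of them annotated as pseudogenes, and 39 other genes. The longest run on chromosome 7 held 116 receptor genes and 24 others, 6 of them Hbb genes, and is thus the run around the beta-globin locus. The longest run on chromosome 9 held 127 receptor genes and 17 others. Chromosome 7 had further runs of 80 and 42 receptor genes, whose positions in mm9 were not looked up. Promoters of 300 bases were present for 187, 80 and 80 starts of the runs on chromosomes 2, 7 and 9. Their median GC content was 32.0%, 38.0% and 35.5%, against 53.3% over 31893 promoters of all other genes. The promoter nearest to the median of each run is printed to show this base composition, from 250 bases before to 50 bases after the start of the gene. Capitals mark TAATTA, a core recognised by homeodomain proteins, which are known regulators of receptor genes in olfactory neurons. The 3 genes are Olfr1096 (GRCm38.p6 chr2:86874753-86875052, minus strand), Olfr609 (GRCm38.p6 chr7:103492827-103493126, minus strand) and Olfr912 (GRCm38.p6 chr9:38579994-38580293, plus strand).
Olfr1096: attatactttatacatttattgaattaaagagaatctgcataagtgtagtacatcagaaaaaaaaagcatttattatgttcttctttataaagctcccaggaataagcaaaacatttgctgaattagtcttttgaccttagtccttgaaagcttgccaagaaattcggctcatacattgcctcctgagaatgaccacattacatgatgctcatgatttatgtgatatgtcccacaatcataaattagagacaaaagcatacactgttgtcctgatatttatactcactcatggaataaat
Olfr609: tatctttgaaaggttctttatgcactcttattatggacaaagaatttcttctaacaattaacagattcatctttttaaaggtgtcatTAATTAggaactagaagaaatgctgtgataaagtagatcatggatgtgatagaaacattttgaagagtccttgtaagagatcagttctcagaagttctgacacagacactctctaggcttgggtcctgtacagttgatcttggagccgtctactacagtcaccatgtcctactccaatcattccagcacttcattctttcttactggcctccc
Olfr912: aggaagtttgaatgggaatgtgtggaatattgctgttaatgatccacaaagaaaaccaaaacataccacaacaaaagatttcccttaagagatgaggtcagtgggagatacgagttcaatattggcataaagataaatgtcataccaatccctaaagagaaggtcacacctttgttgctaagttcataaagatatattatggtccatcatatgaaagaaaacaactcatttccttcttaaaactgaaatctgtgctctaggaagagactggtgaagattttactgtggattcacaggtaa

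The GC content of these promoters is 32.0% for Olfr1096, 38.0% for Olfr609 and 35.7% for Olfr912. TAATTA, which reads the same on both strands, was found in 46 of 187 promoters of the run on chromosome 2 (24.6%), in 9 of 80 on chromosome 7 (11.2%) and in 14 of 80 on chromosome 9 (17.5%), against 4.9% of promoters of all other genes. The contrast was smaller at matched base composition. Among promoters between 31.7% and 39.7% GC, the interquartile range of all receptor promoters, the motif stood in 17.8% of 493 receptor promoters and in 15.7% of 2286 others.

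The clusters were sparse in every list. Their density, in positions per Mb, was below that of the rest of the same chromosome in 24 of 24 combinations of cluster and list. Nucleosome density was 0.527 to 0.849 of that of the rest of the chromosome, and the density of small structures was 0.302 to 0.571 of it. The cluster on chromosome 2 held 1312 positions per Mb in the H2A.L.2-less and 1235 in the WT spermatocyte list, 1544 in the H2A.L.2-less and 1297 in the WT round spermatid list, and 1012 in the H2A.L.2-less and 977 in the WT condensing nucleosome list. The rest of chromosome 2 held 2036 in the H2A.L.2-less and 2232 in the WT spermatocyte list, then 1945 for H2A.L.2-less and 2260 for WT round spermatids, and 1613 for H2A.L.2-less and 1572 for WT condensing nucleosomes. All 6 cluster values lay below their counterparts.

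The cluster on chromosome 9 was close to that on chromosome 2. It held 1338 positions per Mb in the H2A.L.2-less and 1287 in the WT spermatocyte list, 1618 and 1367 in H2A.L.2-less and WT round spermatids, and 1034 and 1006 in H2A.L.2-less and WT condensing nucleosomes. The cluster on chromosome 7 was denser in each of these lists, with 1713 positions per Mb in the H2A.L.2-less and 1771 in the WT spermatocyte list, 1761 and 1751 in H2A.L.2-less and WT round spermatids, and 1320 and 1340 in H2A.L.2-less and WT condensing nucleosomes. It was below the rest of its chromosome by a smaller factor than the other clusters in each of the 6 nucleosome lists and both small-structure lists.

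**Figure D1:**
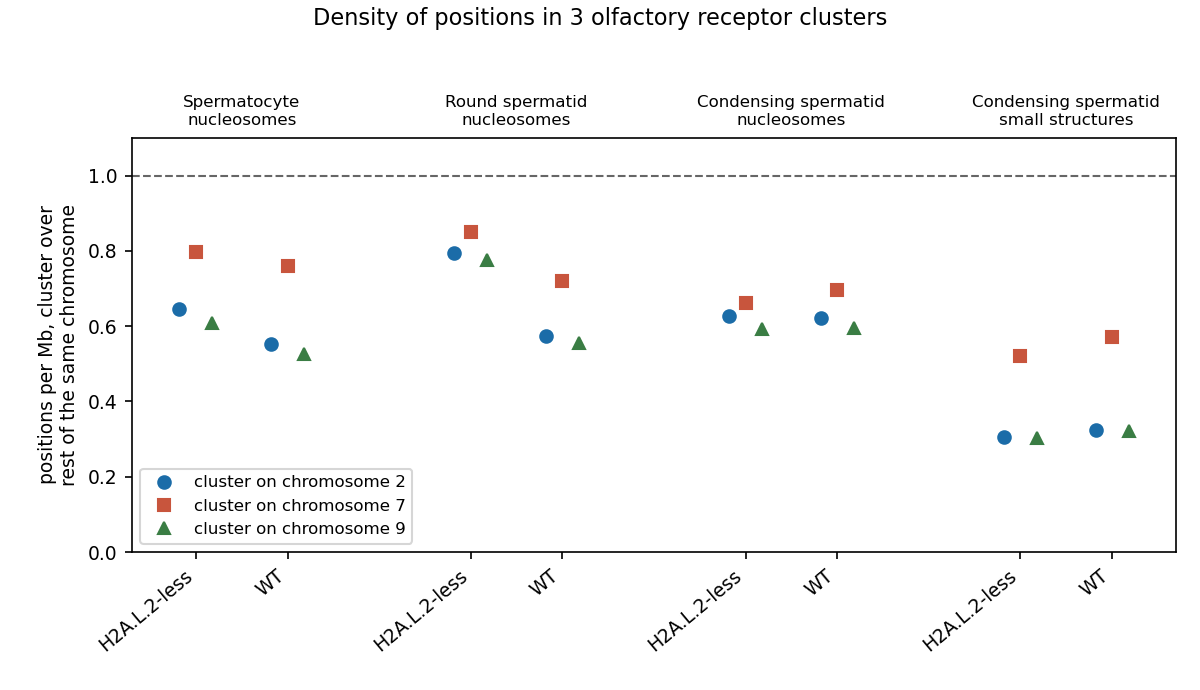
Positions per Mb in each cluster over positions per Mb in the rest of the same chromosome (vertical axis, no unit), in the 8 lists; each point is 1 library. All 24 points lie below the dashed line at 1, nucleosomes between 0.527 and 0.849 and small structures between 0.302 and 0.571.

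Relative to the rest of the chromosome, small structures were the sparsest class in each cluster. On chromosome 2 they numbered 537 per Mb in the H2A.L.2-less and 738 in the WT cluster, against 1758 and 2279 in the rest of the chromosome in H2A.L.2-less and WT cells. On chromosome 9 they numbered 585 per Mb in the H2A.L.2-less and 811 in the WT cluster, against 1935 and 2530 in the rest. On chromosome 7 they numbered 1089 per Mb in the H2A.L.2-less and 1523 in the WT cluster, against 2088 and 2669 in the rest. The cluster share of the rest was therefore about 0.305 and 0.324 on chromosome 2, 0.302 and 0.321 on chromosome 9, and 0.522 and 0.571 on chromosome 7, for H2A.L.2-less and WT cells.

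Stretches without any position took up more of the clusters. In WT round spermatids, gaps of more than 1 kb between neighbouring summits covered 66.3% of the cluster on chromosome 2, against 34.1% of the rest of that chromosome. On chromosome 9 they covered 63.5% of the cluster and 27.7% of the rest, and on chromosome 7 they covered 50.1% of the cluster and 33.8% of the rest. The median distance between neighbours was 360 bp in the cluster on chromosome 2 and 255 bp in the rest. A stretch of 50640 bp on chromosome 7, starting 3.82 Mb into the interval, held no summit in any of the 8 lists. The longest such stretch was 5280 bp on chromosome 2 and 4180 bp on chromosome 9. The cause of the long stretch on chromosome 7 was not tested. Receptor genes have many near-identical copies, and whether reads matching several places were kept is not given in the sources used here, so sparse mapping and sparse protection cannot be told apart.

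Equally sparse segments existed elsewhere on these chromosomes, few relative to the clusters on chromosomes 2 and 9 and more relative to that on chromosome 7. When the rest of each chromosome was divided into tiles of the cluster's length, 1 or 2 of 36 tiles were sparser than the cluster on chromosome 2, depending on the list. Between 2 and 6 of 23 tiles were sparser than the cluster on chromosome 7, and between 0 and 3 of 53 were sparser than that on chromosome 9. The rest of these chromosomes also holds shorter runs of receptor genes, among them 47 genes on chromosome 2 and 51 on chromosome 9, whose positions in mm9 were not looked up.

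The depletion was spread over the clusters on chromosomes 2 and 9 and uneven on chromosome 7. A window of 100 kb was compared with the median window of its chromosome. On chromosome 9, 22 of 22 windows were below the median in all 8 lists. On chromosome 2, 45 to 47 of 47 windows were below it. On chromosome 7, 46 to 55 of 59 windows were below it and 4 to 13 were at or above it, depending on the list. In WT round spermatids the windows held 174 ± 61.9 positions on chromosome 7 (SD over 59 windows), 130 ± 19.7 on chromosome 2 (47 windows) and 137 ± 19.7 on chromosome 9 (22 windows). Windows of a cluster share a library and are not replicates.

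**Figure D2:**
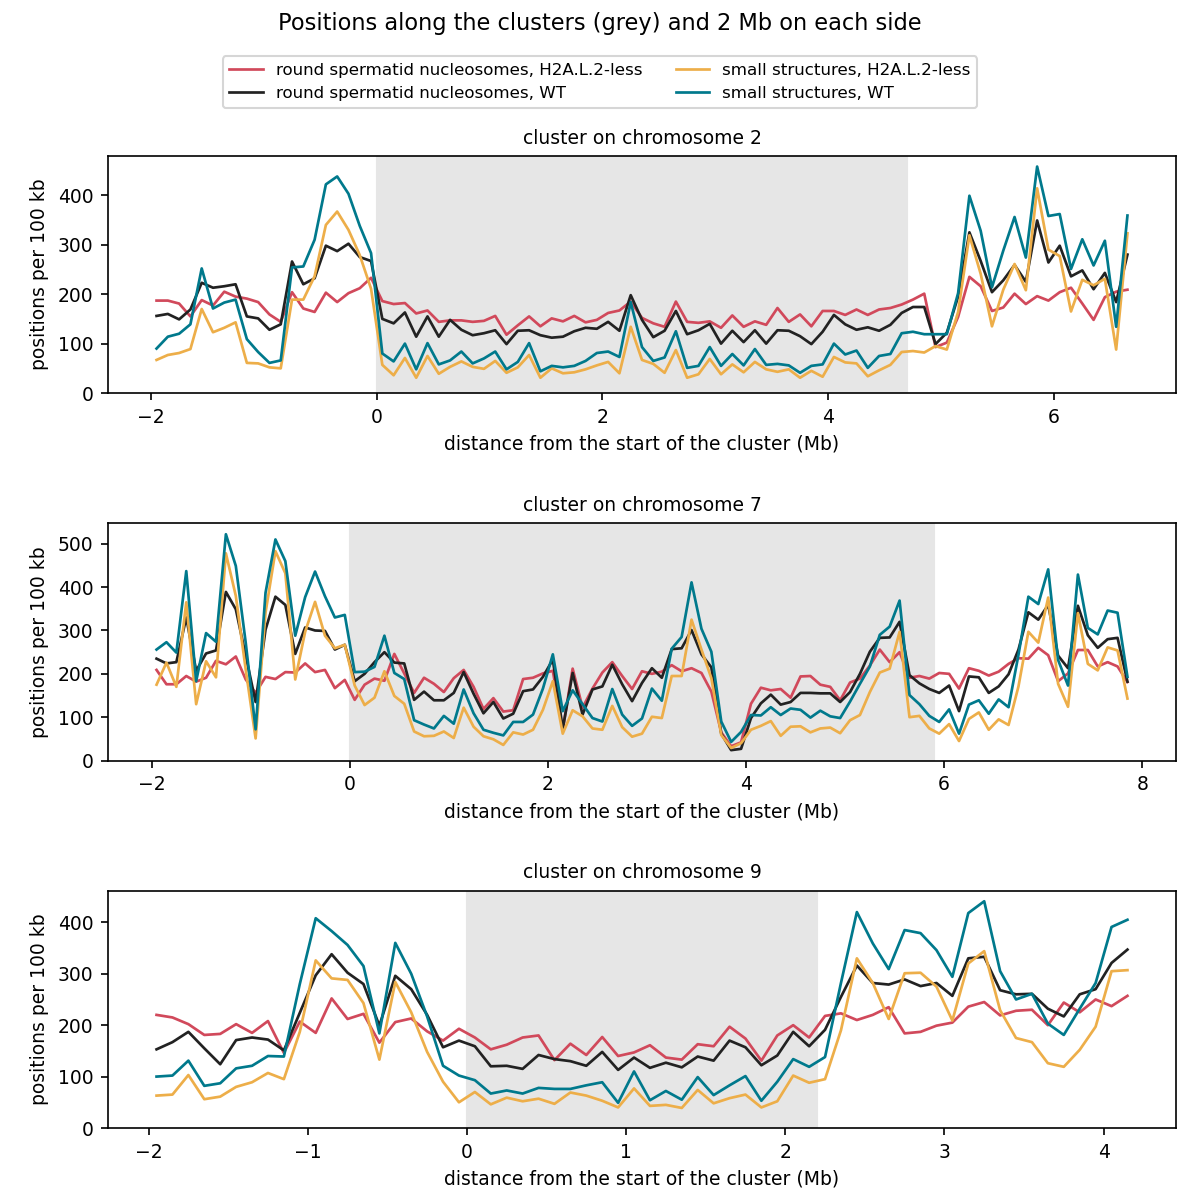
Positions per 100 kb (vertical axis) by distance from the start of each cluster in Mb (horizontal axis), in round spermatid nucleosomes and condensing small structures of both genotypes; each line is 1 library, and the cluster is shaded grey. Small structures are few across the clusters on chromosomes 2 and 9, while the cluster on chromosome 7 has dense stretches and a low point near 3.8 Mb.

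The edges of the clusters were visible against the nearest 2 Mb on each side. In WT small structures the median window held 66 positions inside and 253 in the flanks on chromosome 2, 117 inside and 289.5 in the flanks on chromosome 7, and 77 inside and 281 in the flanks on chromosome 9. In H2A.L.2-less small structures it held 50 inside and 179.5 in the flanks on chromosome 2, 79 and 216.5 on chromosome 7, and 55 and 188.5 on chromosome 9. The contrast was weakest in H2A.L.2-less round spermatids, with 152 inside and 187.5 in the flanks on chromosome 2, against 127 inside and 221.5 in the flanks in WT round spermatids.

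Windows more than 2-fold below the median of their chromosome were counted as low. In spermatocytes, 7 of 128 cluster windows were low in the H2A.L.2-less list, where 1.98% of all autosomal windows were, and 27 in the WT list, where 5.11% were. In round spermatids, 4 cluster windows were low in the H2A.L.2-less list (0.554% of all windows) and 22 in the WT list (4.92% of all windows). Among condensing nucleosomes, 27 were low in the H2A.L.2-less list (8.35% of all windows) and 21 in the WT list (8.32% of all windows). Among small structures, 89 were low in the H2A.L.2-less list (24.0% of all windows) and 93 in the WT list (24.6% of all windows). The share among cluster windows was above the background in each list, from 3.12% of windows in H2A.L.2-less round spermatids to 72.7% in WT small structures.

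The sparsest and densest windows show the range within each cluster. On chromosome 2 the lowest window lay 1.1 Mb into the cluster (chr2:86200001-86300000), with 118 positions in the H2A.L.2-less and 99 in the WT round spermatid list and with 41 small structures in H2A.L.2-less and 48 in WT cells. The highest window of that cluster (chr2:87300001-87400000) held 185 positions in the H2A.L.2-less and 198 in the WT round spermatid list and 134 small structures in H2A.L.2-less and 184 in WT cells. Even this window was below the median of the chromosome in round spermatids, which was 195 in H2A.L.2-less and 215 in WT cells. In H2A.L.2-less small structures it was above the median, which was 132.

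On chromosome 7 the lowest window contained the long empty stretch (chr7:113100001-113200000) and held 33 positions in the H2A.L.2-less and 24 in the WT round spermatid list. The highest window (chr7:114800001-114900000) held 250 positions in the H2A.L.2-less and 320 in the WT round spermatid list, above the chromosome's median window of 207 and 245 in H2A.L.2-less and WT cells. It was also above the median in small structures, with 297 in H2A.L.2-less and 369 in WT cells, against a median window of 179 and 252.5. On chromosome 9 the lowest window (chr9:39000001-39100000) held 39 small structures in H2A.L.2-less and 55 in WT cells. The highest (chr9:39700001-39800000) held 102 in H2A.L.2-less and 134 in WT cells, against a median window of 171 and 248 on that chromosome. Both windows on chromosome 9 were thus below the median. The pair of windows from 1.6 Mb into the interval on chromosome 7, where the choice of intervals places beta-globin, held 108 and 160 positions in WT round spermatids and 89 small structures each in WT cells, and leaving them out changed the sign of no density difference.

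The order of windows was shared between genotypes. Over the 128 cluster windows, Pearson's r between H2A.L.2-less and WT lists was 0.96 for spermatocytes, 0.86 for round spermatids, 0.96 for nucleosomes of condensing spermatids and 0.99 for their small structures. Spearman's rank correlation was 0.94, 0.86, 0.93 and 0.96 in the same order. Between small structures and the round spermatid nucleosomes of the same genotype, Pearson's r was 0.59 in H2A.L.2-less and 0.89 in WT cells. The rank correlation there was 0.64 and 0.82. The clusters were pooled, so differences between clusters enter these values. These are descriptions over windows that share the mappability and base composition of the same DNA.

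Relative to the rest of the chromosome, the clusters held more round spermatid positions in H2A.L.2-less than in WT cells. The cluster on chromosome 2 had 7258 positions in the H2A.L.2-less and 6098 in the WT round spermatid list, while the rest of the chromosome had 337963 in H2A.L.2-less and 392613 in WT cells. The log2 ratio of H2A.L.2-less over WT positions in the cluster minus that in the rest was 0.47 (95% counting interval 0.42 to 0.52). On chromosome 9 the cluster had 3560 positions in the H2A.L.2-less and 3008 in the WT round spermatid list, and the difference was 0.48 (0.41 to 0.55). On chromosome 7 the cluster had 10317 in H2A.L.2-less and 10262 in WT cells, and the difference was 0.24 (0.20 to 0.28). The number of positions was thus higher in H2A.L.2-less cells on chromosomes 2 and 9 and nearly equal on chromosome 7, where the rest of the chromosome had fewer.

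In spermatocytes the same differences were smaller, 0.22 (0.17 to 0.27) on chromosome 2, 0.07 (0.03 to 0.11) on chromosome 7 and 0.20 (0.13 to 0.28) on chromosome 9. Among condensing nucleosomes they were near 0, at 0.01 (-0.05 to 0.07) on chromosome 2, -0.08 (-0.12 to -0.03) on chromosome 7 and -0.0048 (-0.09 to 0.08) on chromosome 9. For small structures they were -0.09 (-0.16 to -0.01) on chromosome 2, -0.13 (-0.18 to -0.08) on chromosome 7 and -0.09 (-0.19 to 0.02) on chromosome 9. The small-structure values turned positive when lists were reduced to equal length, at 0.40, 0.08 and 0.19 on chromosomes 2, 7 and 9, so no direction holds for that class.

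**Figure D3:**
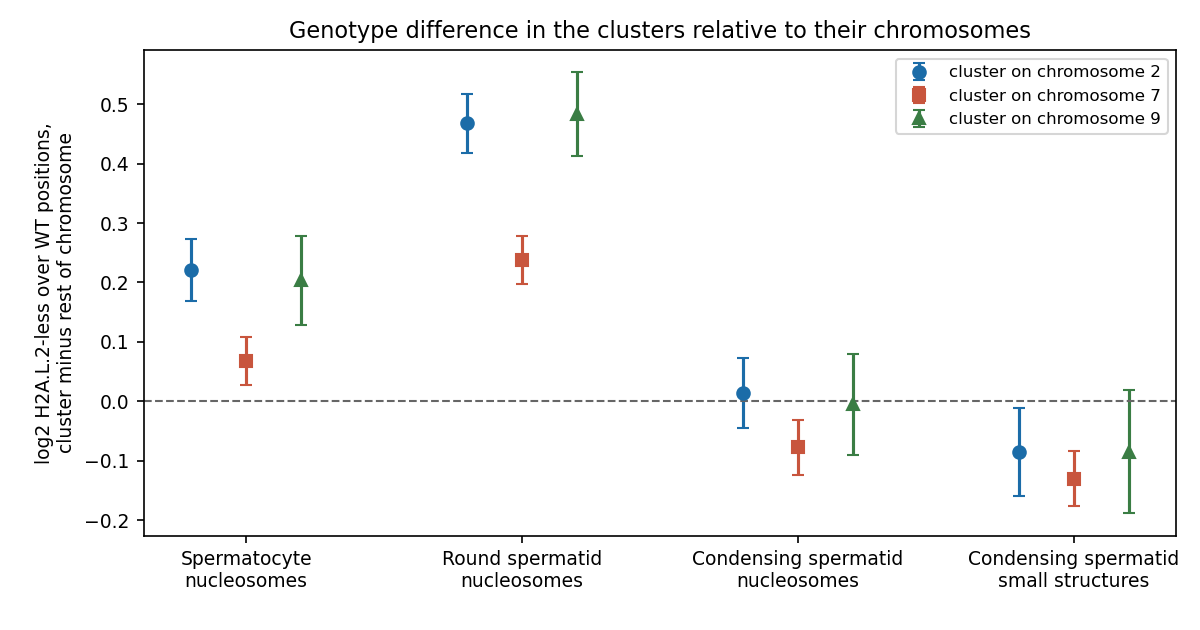
Log2 ratio of H2A.L.2-less over WT positions in each cluster minus the same ratio in the rest of the chromosome (vertical axis), by stage and fragment class; each point compares 2 libraries, and bars are 95% counting intervals. Round spermatids give the highest values, 0.47, 0.24 and 0.48 on chromosomes 2, 7 and 9.

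By window, with each ratio taken relative to that of all autosomal windows, positions in round spermatids were higher in H2A.L.2-less than in WT cells in 115 of 127 cluster windows with enough positions, with a median log2 ratio of 0.36. A log2 ratio of at least 0.5 was reached by 27 of these windows, against 12.7% of all windows, and a ratio of -0.5 or lower by 0, against 6.92% of all windows. In spermatocytes 3 of 127 windows passed upward (0.234% of all windows) and 0 downward (0.325%). Among condensing nucleosomes 0 passed upward (0.384%) and 2 of 127 downward (0.209%). Among small structures 0 of 128 passed upward (0.0336%) and 0 downward (0.589%).

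The shift in round spermatids was not particular to receptor clusters. Windows elsewhere on the autosomes that were as sparse in WT round spermatids, with 124.5 to 165.5 positions, had a median log2 ratio of 0.42 (4388 windows; quartiles 0.33 and 0.51), and cluster windows had 0.36 (quartiles 0.26 and 0.49). All windows outside the clusters had a median of 0.09. The WT count served both to choose the sparse windows and as the denominator of the ratio. In spermatocytes the cluster windows had a median of 0.15 and the equally sparse windows 0.13, and in small structures the values were -0.08 and -0.11.

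From stage to stage, the clusters in H2A.L.2-less cells gained positions and then lost them relative to their chromosomes, whereas the values in WT cells were closer to 0, though only slightly so for the first step on chromosome 7. In H2A.L.2-less cells the log2 ratio of round spermatid over spermatocyte positions, cluster minus rest, was 0.30 (0.25 to 0.35) on chromosome 2, 0.09 (0.05 to 0.13) on chromosome 7 and 0.35 (0.28 to 0.42) on chromosome 9. The ratio of condensing over round spermatid nucleosomes was -0.34 (-0.39 to -0.29), -0.36 (-0.41 to -0.32) and -0.39 (-0.46 to -0.31) on the same chromosomes. In WT cells the first step gave 0.05 (0.0016 to 0.11), -0.08 (-0.12 to -0.04) and 0.07 (-0.00053 to 0.15) on chromosomes 2, 7 and 9, and the second gave 0.11 (0.06 to 0.17), -0.05 (-0.09 to -0.0050) and 0.10 (0.02 to 0.18). The steps of a genotype share the round spermatid list, so a high value of that list appears in both steps with opposite sign. The H2A.L.2-less round spermatid list was more even over all autosomes, with 0.554% of windows low, against 4.92% in WT cells. Equally sparse windows were not compared for the steps. A fragment range of 130 to 170 bp is given for condensing nucleosomes and none for the earlier stages, so the second step may compare unlike fragments. The second value on chromosome 9 in WT cells turned to -0.02 among positions at or above the list median. The values on chromosome 7 for the second step were -0.13 in H2A.L.2-less and 0.12 in WT cells when the other autosomes replaced the rest of the chromosome.

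Small structures were fewer per condensing nucleosome in the clusters. On chromosome 2 there were 0.531 small structures per nucleosome position in the H2A.L.2-less cluster and 0.756 in the WT cluster, against 1.09 and 1.45 in the rest of the chromosome. On chromosome 9 there were 0.566 in the H2A.L.2-less and 0.806 in the WT cluster, against 1.11 and 1.5 in the rest. On chromosome 7 there were 0.825 in the H2A.L.2-less and 1.14 in the WT cluster, against 1.04 and 1.39 in the rest. The log2 difference between cluster and rest was -1.04 in H2A.L.2-less and -0.94 in WT cells on chromosome 2, -0.34 and -0.29 on chromosome 7, and -0.97 and -0.89 on chromosome 9. It was below 0 in 6 of 6 combinations of cluster and genotype.

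A like shortage was present in other windows of the same nucleosome density. Over the cluster windows, the median number of small structures per nucleosome was 0.612 in H2A.L.2-less and 0.848 in WT cells. Windows outside the clusters with equally few condensing nucleosomes gave 0.615 in H2A.L.2-less and 0.922 in WT cells, and all windows outside the clusters gave 0.861 and 1.26. The pooling hides a difference between clusters. Taken from total counts, the ratios on chromosomes 2 and 9 were lower, 0.53 and 0.566 in H2A.L.2-less and 0.756 and 0.806 in WT cells. Those on chromosome 7 were higher, 0.825 and 1.14. Sparse windows were not chosen for each cluster separately. The levels of the 2 genotypes cannot be compared directly, since the small-structure lists differ in length and in calling floor.

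Small structures in the clusters lay on earlier nucleosome positions more often than after a shift of 5000 bp, which was taken as chance. In WT cells, 45.0% of the 3469 small-structure summits of chromosome 2 had a round spermatid summit within 40 bp, and 11.4% had one after a shift of 5000 bp. For H2A.L.2-less cells this was 27.1% of 2523 summits, with 14.0% after the shift. Because chance matches depend on density, the share beyond chance was computed as the difference of the 2 shares over what the shifted share leaves. On chromosome 2 it was 15.2% in the H2A.L.2-less and 37.9% in the WT cluster, against 6.54% and 23.0% in the rest of the chromosome. On chromosome 9 it was 14.8% in the H2A.L.2-less and 37.4% in the WT cluster, against 6.91% and 23.2% in the rest, and on chromosome 7 it was 8.10% and 28.5% in the cluster, against 6.23% and 21.4% in the rest. The clusters were above the rest in all 6 of these comparisons. WT was above H2A.L.2-less in the clusters and in the rest alike. The lists of the genotypes differ in length and in calling floor, so their shares cannot be compared directly. Matched to condensing nucleosomes instead, the share beyond chance in the H2A.L.2-less and WT cluster was 11.5% and 13.1% on chromosome 2, against 6.21% and 7.74% in the rest. It was 11.3% and 10.7% on chromosome 9, against 5.86% and 7.54%. On chromosome 7 cluster and rest were close, with 6.93% and 8.78% against 6.51% and 8.31%.

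How matching between genotypes at the same stage compared in the clusters and the rest depended on the measure and on the direction of matching. On chromosome 2, 41.7% of H2A.L.2-less round spermatid summits had a WT summit within 40 bp (95% Wilson interval 40.6% to 42.8%), against 49.6% in the rest of the chromosome. The shifted shares were 11.3% in the cluster and 21.4% in the rest. As a fold over the shifted share, with H2A.L.2-less summits matched to WT, the clusters were higher in 12 of 12 comparisons, from 2.2-fold to 9.02-fold, against 1.70-fold to 2.54-fold in the rest. The shifted share is lower where density is lower, and the fold rises as it falls. Neither the fold nor the share beyond chance is corrected for local clumping of summits. As a share beyond chance in this direction, the clusters were lower in 5 of 12 comparisons. That share was 34.3% in the cluster and 36.0% in the rest of chromosome 2 for round spermatids, and 64.2% and 65.2% for small structures. With WT summits matched to H2A.L.2-less ones, the fold was again higher in the clusters in 12 of 12 comparisons, and the share beyond chance was lower in 3 of 12 comparisons, all of them small structures. In that direction the share beyond chance in round spermatids was 41.3% in the cluster and 29.8% in the rest of chromosome 2, 35.05% and 29.5% on chromosome 7, and 41.4% and 29.8% on chromosome 9. The totals behind the 2 shares of the cluster on chromosome 2 were 7258 H2A.L.2-less and 6098 WT round spermatid summits.

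The median height of called nucleosome summits in the clusters was close to that of the whole list. The median summit value over the list median lay between 0.96 and 1.02 in all 18 combinations of cluster and nucleosome list, and between 1.0 and 1.04 in the rest of the chromosomes. For small structures it was 0.80 in the H2A.L.2-less and 0.787 in the WT cluster on chromosome 2, against 1.0 and 1.03 in the rest. It was 0.90 and 0.869 on chromosome 7, against 1.05 and 1.08, and 0.80 and 0.82 on chromosome 9, against 1.0 and 1.02. Small structures of the clusters were thus both fewer and lower. The room for lower heights differed between the classes. The first percentile of the summit value was 160 to 176 in the nucleosome lists, whose medians were 192 to 240. In small structures it was 96 against a median of 160 for H2A.L.2-less and 272 against 488 for WT cells. Weaker positions are not called, so nucleosome medians near 1 do not show that protection in the clusters was of usual strength. In all, 13 of 24 combinations had a lower median height than the rest of the chromosome, the 6 of small structures among them.

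A few summits stood well above this level. The highest summit of the cluster on chromosome 2 in WT round spermatids, at 88455841, reached 5.08 times the list median there. Within 10 bp of it lay the highest summit of that cluster in each of the 6 nucleosome lists, with 7.59 times the list median in the H2A.L.2-less and 9.35 in the WT spermatocyte list, 7.16 in H2A.L.2-less round spermatids, and 11.7 in the H2A.L.2-less and 9.74 in the WT condensing nucleosome list. The highest summit on chromosome 7 in WT round spermatids, at 111920931, was 6.10 times the list median and had a counterpart within 20 bp in the other nucleosome lists except WT condensing nucleosomes, where the nearest summit was 80 bp away. The highest summit on chromosome 9, at 38448321, was 3.75 times the list median, with counterparts of 2.75 to 4.64 times within 10 bp in the other nucleosome lists. Chosen after the values were seen, a small-structure summit on chromosome 9 reached 23.7 times the list median in H2A.L.2-less cells (38221301) and 23.8 times in WT cells (38221311), 10 bp apart.

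Fuzziness, the caller's score for how widely fragments scatter around a position, was lower in the clusters than in the rest of the chromosome in 24 of 24 combinations. In round spermatids the median was 52.3 in the H2A.L.2-less and 52.5 in the WT cluster on chromosome 2, against 52.7 and 53.3 in the rest. On chromosome 7 it was 52.6 in the H2A.L.2-less and 52.9 in the WT cluster, against 52.9 and 53.5, and on chromosome 9 it was 52.5 in each genotype's cluster, against 52.9 and 53.4. In these lists the difference between cluster and rest ranged from -0.91 to -0.28, and window medians within a cluster had an SD of 0.63 to 1.03. Small structures differed more: 47.2 in the H2A.L.2-less and 50.4 in the WT cluster on chromosome 2, against 50.5 and 52.7 in the rest of the chromosome.

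**Figure D4:**
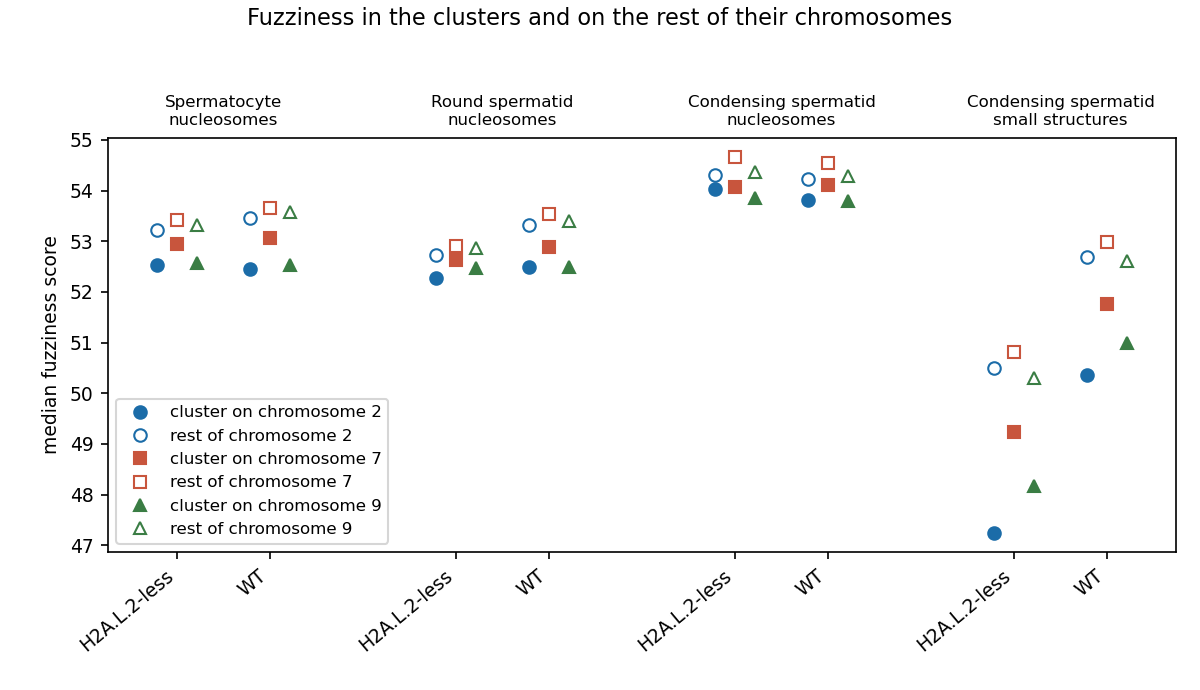
Median fuzziness score (vertical axis, which does not start at 0) of positions in each cluster (filled) and in the rest of the same chromosome (open), in the 8 lists; each point is 1 library. Every filled point lies below the open point of its chromosome, with the widest gaps in small structures.

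Positions with close neighbours may differ in fuzziness from isolated ones, and the clusters held more isolated ones. In WT round spermatids, 30.3% of positions in the cluster on chromosome 2 had both neighbours at least 300 bp away, against 22.4% in the rest. Among isolated positions only, fuzziness was still lower in the clusters in all combinations but WT small structures on chromosome 2, where it was higher by 0.03. The lower score was not particular to the clusters, and against equally sparse windows the direction was reversed. In every list, the median over cluster windows lay above that over equally sparse windows elsewhere and below that over all other windows. In WT round spermatids the median over cluster windows was 52.6, against 52.1 over equally sparse windows and 52.9 over all other windows. These medians were 52.5, 52.4 and 52.7 in H2A.L.2-less round spermatids, and 48.1, 47.1 and 48.6 in H2A.L.2-less small structures.

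Nucleosome arrays within the clusters were, up to the round spermatid stage, as regular as or somewhat less regular than elsewhere in most comparisons. Smoothed distance curves underlie this statement. Regularity was taken from the distances between summits, as the highest value of the curve at 330 to 450 bp over the lowest at 230 to 330 bp. In round spermatids it was 2.16 in the H2A.L.2-less and 1.76 in the WT cluster on chromosome 2, against 2.18 and 1.81 in the rest of the chromosome. On chromosome 7 it was 2.12 in the H2A.L.2-less and 1.80 in the WT cluster, against 2.21 and 1.83, and on chromosome 9 it was 2.23 and 1.86, against 2.23 and 1.86. In spermatocytes it lay between 1.55 and 2.11 in the clusters and between 1.67 and 1.91 in the rest. Of the 12 combinations of cluster and list at these stages, 9 had a lower regularity than the rest of the chromosome, and 11 were below the median of tiles of the cluster's length. In WT spermatocytes the clusters were above 3 of 36 tiles on chromosome 2, 5 of 23 on chromosome 7 and 3 of 53 on chromosome 9. Of the 6 combinations among condensing nucleosomes, 1 was below the rest. Over all 18 combinations 10 were lower, and without smoothing of the curve 4 were. The count of 9 of 12 at the earlier stages thus depended on smoothing. The repeat length was 188 to 196 bp in the clusters and 186 bp in the rest in these 4 lists, with positions resolved to about 10 bp.

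Among condensing nucleosomes the wave was nearly gone in the rest of these chromosomes, with a regularity of 1.05 to 1.06 in H2A.L.2-less and 1.04 to 1.05 in WT cells. In the H2A.L.2-less clusters it was 1.23 on chromosome 2, 1.15 on chromosome 7 and 1.34 on chromosome 9. In the WT clusters it was 1.09, 1.07 and 1.02. Tiles of the cluster's length gave higher ratios than the whole rest, with medians in H2A.L.2-less cells of 1.1, 1.08 and 1.15 on these chromosomes, and most tiles still held more positions than the cluster. The H2A.L.2-less cluster was above 36 of 36 tiles on chromosome 2, above 22 of 23 on chromosome 7 and above 52 of 53 on chromosome 9. The WT cluster was above 12 of 36, 6 of 23 and 0 of 53 tiles on the same chromosomes. Pooled over the 3 clusters, regularity was 1.15 in H2A.L.2-less and 1.04 in WT cells, with 14765 and 14656 positions, against 1.05 in the rest of the 3 chromosomes in each genotype. The repeat length read from this shallow wave in H2A.L.2-less cells was 222 bp on chromosome 2, 190 bp on chromosome 7 and 206 bp on chromosome 9, and 212 bp for the clusters pooled, a wider spread than at the earlier stages. It is read from the highest points near multiples of 190 bp, and a flat curve gives a value too. These lengths are therefore not established repeat lengths.

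**Figure D5:**
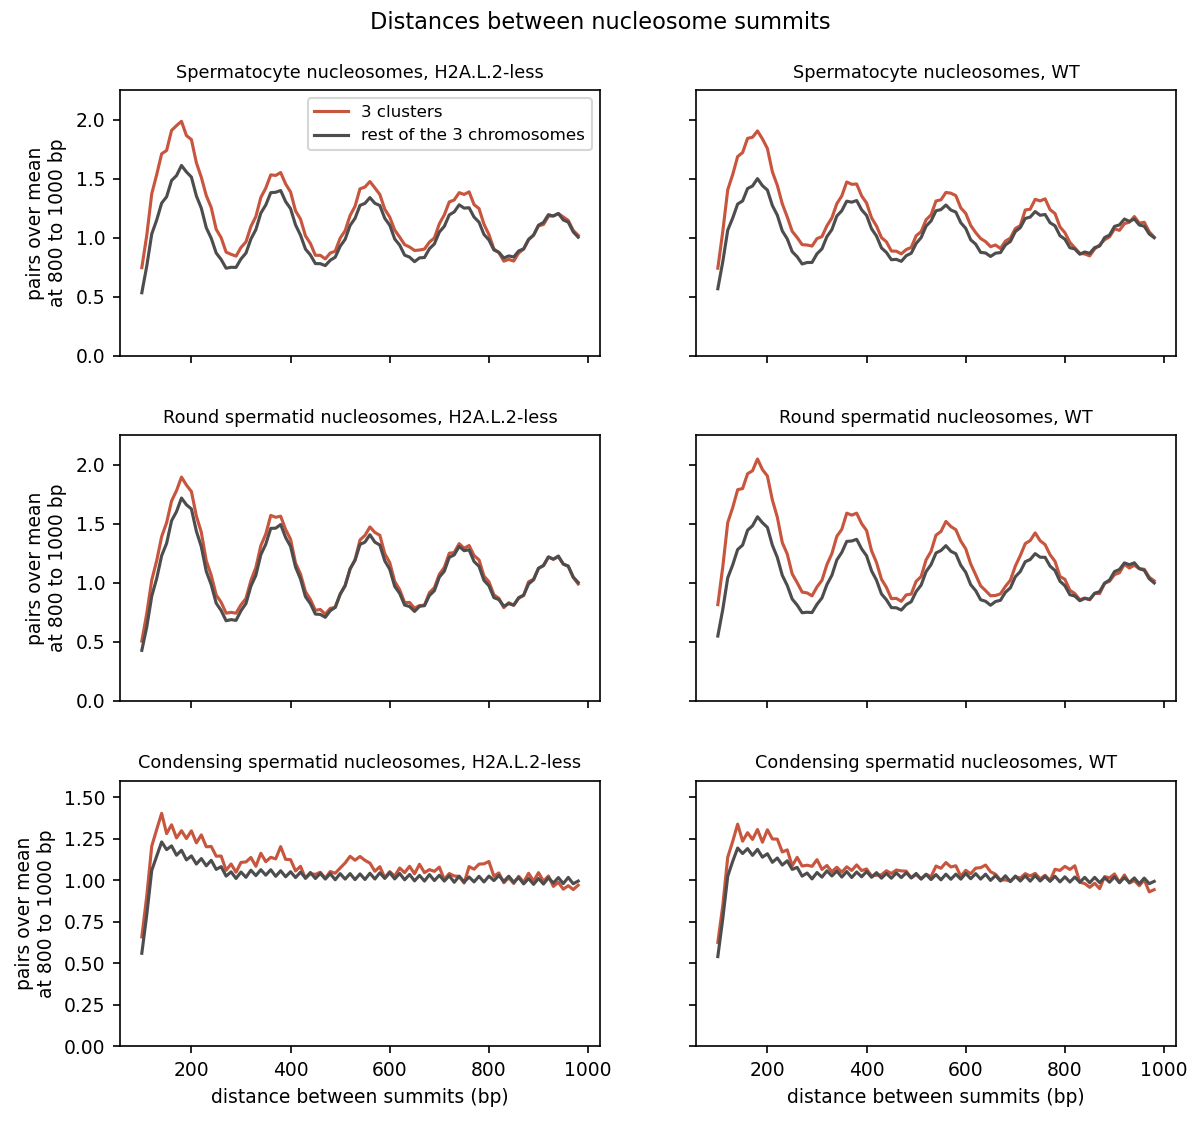
Pairs of nucleosome summits by distance in bp (horizontal axis), in 10 bp bins smoothed over 5 bins and divided by the mean at 800 to 1000 bp (vertical axis), pooled over the 3 clusters and over the rest of their chromosomes; each panel is 1 library. In spermatocytes and round spermatids the peaks of clusters and rest fall at nearly the same distances, with the cluster curve higher at short distances, and among condensing nucleosomes a shallow wave is seen in the H2A.L.2-less clusters, with a regularity of 1.15 against 1.04 in the WT clusters.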

How the data were processed

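The deposited files list positions on mm9, and per the file headers each row gives start, end, summit location, summit value and fuzziness. Summit values are deposited as a coverage signal in multiples of 4, with no normalization visible. The fuzziness score was deposited as the caller wrote it and measures scatter. Per the submitters' processing notes, Bowtie2 2.2.9 and deepTools 2.2.4 were used, and per the series description 3 sequencing runs of each sample were merged. The caller's version and thresholds, and how duplicates or reads with several matches were treated, are not given in the sources used here.

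Densities were taken over 10 kb bins that held a summit in at least 1 list, which left out 4 of 1280 cluster bins. Window counts used autosomal windows of 100 kb, and ratios needed 60 positions in both lists together. Counting intervals for log2 ratios take positions as independent counts. Named windows are the highest and lowest of each cluster by positions summed over the 8 lists, and named summits are the highest in WT round spermatids, unless stated. The promoters were chosen by their GC content. The intervals, measures and lists were chosen with earlier results of these data known. Matching and distance curves were tested on simulated data. Python 3.11.15, numpy 2.4.6, pandas 2.3.3 and matplotlib 3.10.9 were used.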

Additional observations from a re-analysis of the deposited data

Results flagged for a closer look

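The genotype difference in the clusters, relative to the rest of the chromosome, was positive in round spermatids and at or below 0 in 5 values of the condensing stage as reported, and these differences between stages were not tested. The negative sign of small structures did not hold with equal numbers of positions, where the values were 0.40, 0.08 and 0.19 on chromosomes 2, 7 and 9. On chromosome 2 the genotype difference was higher in round spermatids than in small structures by 0.55 (log2), with 0.47 and -0.09. On chromosome 7 it was higher in round spermatids than in condensing nucleosomes by 0.32, with 0.24 and -0.08, and higher than in small structures by 0.37, with 0.24 and -0.13. On chromosome 9 it was higher in round spermatids than in condensing nucleosomes by 0.49, with 0.48 and -0.0048, a value whose counting interval includes 0, and higher than in small structures by 0.57, with 0.48 and -0.09. Each rests on 1 library per group. By window, relative to all autosomal windows, equally sparse windows elsewhere had a median log2 ratio of 0.42 in round spermatids, against 0.36 in cluster windows. The shift was thus not particular to the clusters, although the WT count both chose the sparse windows and was the denominator.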

How the results depend on the processing

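Of the counts over all clusters, 50 of the alternatives tried stayed within 1.5 times the reported count. With equal numbers of positions in every list, the comparisons with fewer positions in H2A.L.2-less than in WT cells, relative to the rest of the chromosome, numbered 1 of 12 in place of 5. Without smoothing, the combinations with lower regularity numbered 4 of 18 in place of 10. At a 1.5-fold limit, low windows over the 8 lists numbered 612 of 1024 in place of 290. In alternatives chosen after the data were seen, isolated positions gave 1 of 24 combinations with higher fuzziness in place of 0, and the share beyond chance gave 5 of 12 with less matching in place of 0, or 3 of 12 when WT summits were matched to H2A.L.2-less ones. The cause was not tested. Among values of single clusters, 632 alternatives differed from the reported value by less than the SD over the 3 clusters, 161 by more, and 5 changed the sign of a value of 0.1 or more: the log2 regularity of the cluster on chromosome 9 over the rest in WT spermatocytes (0.46 among positions at or above the list median, 0.23 unsmoothed), its step to condensing nucleosomes in WT cells (-0.020 among positions at or above the median), the small-structure genotype difference on chromosome 7 (0.080 with equal numbers) and the fuzziness difference of isolated WT small structures on chromosome 2 (0.030). No paired analysis was possible because each group has 1 library. Depth and the calling floor limit how many weak positions a list can hold.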
